A study of Mus musculus with 10 samples.

Results

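The genes described here encode the receptors, co-receptor, adaptors and first signalling enzymes of Toll-like receptor 4 (TLR4) in mouse neutrophils. They were chosen by gene symbol (Tlr4, Tlr2, Cd14, Ly96, Myd88, Ticam1, Ticam2, Irak1, Irak4 and Traf6), and all 10 were found among the 13091 genes of the deposited tables. The neutrophils were matured in culture from bone marrow progenitors of strain 129-SVEV that carried the ER-HoxB8 transgene, an estrogen-dependent form of a transcription factor that keeps progenitors dividing. Each line was grown out from a single sorted progenitor, so every clone is its own culture model and carries the transgene whatever its genotype. RNA was sequenced as 10 polyA libraries in 4 groups: 2 unstimulated Vim+/+, 2 Vim+/+ with LPS, 3 unstimulated Vim-/- and 3 Vim-/- with LPS. LPS was given at 25 ng/mL for 1 hour. Vim-/- is named a knockdown of vimentin in the labels and a knockout mouse in the methods.

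TLR4 recognizes lipopolysaccharide (LPS), the outer membrane lipid of Gram-negative bacteria. LPS is handed by LPS-binding protein to CD14, which loads it onto the complex of TLR4 with MD-2, the product of Ly96. At the plasma membrane TLR4 signals through MyD88 to IRAK4, IRAK1 and the ubiquitin ligase TRAF6, which leads to NF-κB, and from endosomes it signals through TRAM (Ticam2) and TRIF (Ticam1), which also leads to type I interferon. In neutrophils this receptor primes the respiratory burst, cytokine release and survival.

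The value used for each gene was the authors' mean of the normalized counts over all 10 libraries, which was the same in all 4 tables. It has no replicates, no SD and no test, and the spread between libraries behind it is unknown. It mixes 6 Vim-/- with 4 Vim+/+ libraries and 5 unstimulated with 5 LPS libraries, so it is a level of the whole experiment and not of 1 condition. Differences between genotypes or with LPS were not analysed here. Vimentin itself had a mean normalized count of 39926 over these libraries, higher than 98.7% of genes, and a mean over both genotypes cannot check the genotype labels. The means of all genes ran from 5.08 to 1290830 with a median of 907, and their sum was 55507688.

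The mean normalized counts of the 10 genes ran from 229 for Ticam2 to 34555 for Cd14. Of the 10 genes, 8 lay above the median of all genes and 5 were in the top 25%, with Ly96 and Ticam2 below the median. The median of the 10 genes was 3397, beside 907 for all genes. Together they made up 0.124% of all normalized counts.

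**Figure D1:**
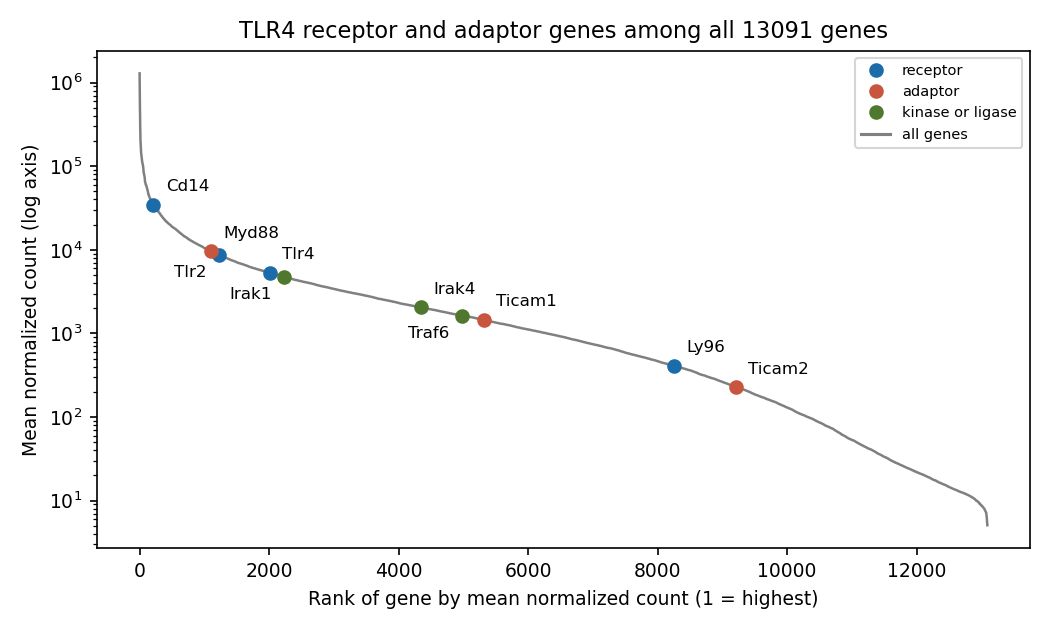
Mean normalized count (log axis) of all 13091 genes in order of rank (grey line), with the 10 TLR4 receptor and adaptor genes as points coloured by role. Cd14 stood at rank 215, Myd88, Tlr2, Tlr4 and Irak1 between ranks 1106 and 2232, and Ticam2 last of the 10 at rank 9205.

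Counts grow with the length of a transcript, so levels of different genes were compared as mean normalized count per kb of exons, taking the union of all annotated exons of a gene. On this scale the order was Cd14, Myd88, Tlr2, Irak1, Tlr4, Ticam1, Irak4, Ly96, Traf6 and Ticam2. No spread over libraries stands behind any step of this order, so no neighbours in it can be said to differ. Places 1, 2, 3 and 10 (Cd14, Myd88, Tlr2 and Ticam2) were also the same when the longest transcript, the principal transcript or the coding sequence was used as the length. Irak1 and Tlr4, at places 4 and 5, changed places with the choice of length, and so did Ticam1, Irak4, Ly96 and Traf6 among each other. Per kb, 8 of the 10 genes, all but Traf6 and Ticam2, lay above the median of all genes, 229 per kb, and the median of the 10 was 721 per kb. The highest, Cd14, was 505 times the lowest, Ticam2, by exon length and 95.7 times by coding length, and by exon length Cd14 alone made up 66.4% of the sum of the 10 levels per kb.

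**Figure D2:**
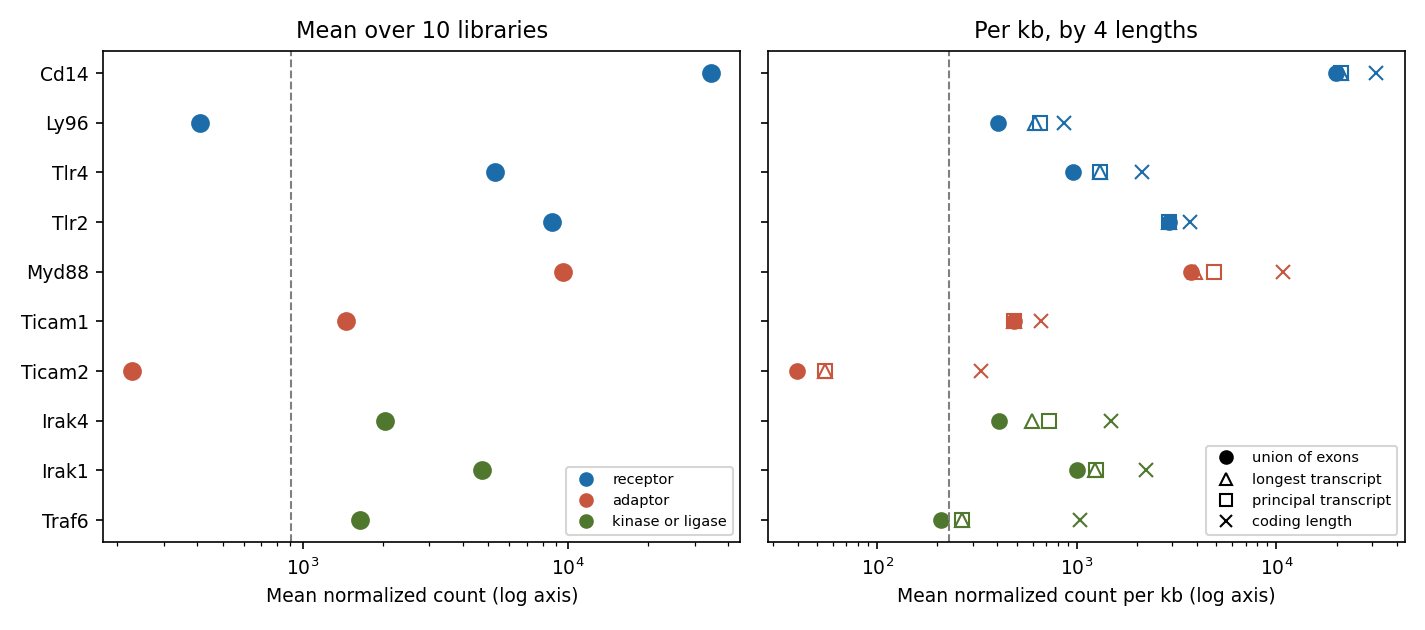
Mean normalized count of each gene over 10 libraries (left) and the same value per kb by 4 lengths (right), on log axes, with colours for role and dashed lines at the median of all genes. Cd14 lay farthest to the right and Ticam2 farthest to the left in both panels, and the coding length moved Ticam2 and Traf6 the most to the right.

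Among the receptor genes, Tlr4 (chr4:66827584-66930284, plus strand of GRCm38) had a mean normalized count of 5313, higher than 84.6% of genes. Its exons cover 5556 bases, which gave 956 per kb, 4.17 times the median of all genes, and 2.54 times by coding length. Tlr2 (chr3:83836272-83841767, minus strand) encodes the receptor for bacterial lipoproteins, which pairs with the products of Tlr1 or Tlr6 and uses the same MyD88 route. It had a mean normalized count of 8690, higher than 90.7% of genes. Its level per kb was 2883, which was 3.01 times that of Tlr4 and between 1.74 and 3.01 times over the 4 lengths.

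Cd14 (chr18:36725067-36726798, minus strand) encodes the co-receptor that binds LPS and delivers it to TLR4 and MD-2. Its mean normalized count of 34555 was higher than 98.4% of genes, and 38.1 times the median. Per kb it reached 19951, which was 20.9 times Tlr4 and between 14.8 and 20.9 times over the 4 lengths. Ly96 (chr1:16688051-16709611, plus strand) encodes MD-2, the small protein that holds the lipid in the TLR4 complex. Its mean normalized count of 413 was 0.455 times the median of all genes. Its exons cover 1021 bases, however, and per kb Ly96 stood at 404, which was 1.76 times the median, and by coding length it stood at 1.03 times. Tlr4 exceeded Ly96 per kb by 2.37 times, and by 2 to 2.47 times over the 4 lengths.

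Of the adaptor genes, Myd88 (chr9:119335934-119341411, minus strand), whose product links all Toll-like receptors but TLR3 to the IRAK kinases, had a mean normalized count of 9568, higher than 91.6% of genes. Per kb it stood at 3714, which was 3.88 times Tlr4 and 3.69 times Irak1. Ticam1 (chr17:56269319-56276786, minus strand) encodes TRIF, the adaptor of the endosomal arm. It had a mean normalized count of 1453, higher than 59.4% of genes, and 486 per kb. Ticam2 (chr18:46557291-46574533, minus strand) encodes TRAM, which bridges TRIF to TLR4. Its mean normalized count was 229, higher than 29.7% of genes, and its level per kb was 39.5, which was 0.172 times the median by exon length and 0.395 times by coding length.

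The MyD88 adaptor therefore stood above both adaptors of the TRIF arm. Per kb Myd88 was 7.65 times Ticam1, with 7.65 to 16.3 times over the 4 lengths, and 94 times Ticam2, with 32.7 to 94 times. Ticam1 was 12.3 times Ticam2 by exon length but 2.01 times by coding length. The coding sequence makes up 16.6% of the principal transcript of Ticam2 and 73.4% of that of Ticam1. Exons of Ticam2 share 838 bases, or 14.47% of their length, with exons of Tmed7 on the same strand. Tmed7, named here after its value was seen, had a mean normalized count of 4264, and how reads in the shared bases were counted is not given in the sources used here, so the level of Ticam2 is uncertain. Myd88 shares 290 bases (11.26% of its exons) with Acaa1a on the opposite strand.

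The kinase and ligase genes follow MyD88 in the pathway. Irak4 (chr15:94543643-94581815, plus strand) encodes the kinase that MyD88 recruits first, and had a mean normalized count of 2048, higher than 66.8% of genes, with 408 per kb. Irak1 (chrX:74013914-74023918, minus strand) encodes the kinase that IRAK4 phosphorylates, and had a mean normalized count of 4747, higher than 83% of genes, with 1007 per kb. Irak1 exceeded Irak4 per kb by 2.47 times, and by 1.5 to 2.47 times over the 4 lengths. Traf6 (chr2:101678429-101701669, plus strand) encodes the ubiquitin ligase that carries the signal to the kinase TAK1. It had a mean normalized count of 1639, higher than 62% of genes. Its exons are the longest of the 10 genes at 7883 bases, and per kb it stood at 208, just below the median of all genes at 0.907 times. By coding length it stood at 1031 per kb, above that scale's median at 1.24 times, whereas Ticam1 then lay below it at 0.794 times. Irak4 shares 395 bases (7.87% of its exons) with Twf1 on the opposite strand, and Irak1 holds the miRNA genes Mir5132 and Mir718 in its exons.

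In the Toll-like receptor family 8 of 12 genes were listed, and Tlr3, Tlr5, Tlr11 and Tlr12 were not among the genes listed. By the union of exons, the only length used for the whole family, Tlr4 stood at place 3 of the 8 per kb, at 956. Above it stood Tlr2 at 2883 and Tlr13, a sensor of bacterial ribosomal RNA, at 1747. Tlr7 followed at 283, Tlr1 at 250, Tlr6 at 199, Tlr8 at 58.2 and Tlr9, the receptor for unmethylated CpG DNA, at 39.5. Tlr4 was 3.38 times Tlr7 and 24.2 times Tlr9, and both partners of TLR2, Tlr1 and Tlr6, stood below Tlr4.

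A wider set of 54 pathway genes in 9 lists was taken as context, of which 47 were listed and 36 lay above the median of all genes. Their median was 3138 by mean normalized count and 481 per kb, beside 3397 and 721 per kb for the 10 genes. Levels per kb in these lists were taken by the union of exons only. In the list of LPS delivery and other LPS sensors, Itgb2, the shared chain of the leukocyte β2 integrins, was the highest at 27067 per kb and Cd180, a TLR4 homologue, the lowest at 32.5. Lbp, which encodes LPS-binding protein and was named after its value was seen, had a mean normalized count of 12116. Of the genes that fold and traffic Toll-like receptors, Hsp90b1, the endoplasmic reticulum chaperone gp96, was the highest at 11323 per kb and Cnpy4 the lowest at 441, and all 5 lay above the median of all genes by count. Of the 3 other TIR adaptors 2 were listed, Pik3ap1 (BCAP) at 2473 per kb and Tirap, which brings MyD88 to TLR4, at 637. By the union of exons, Tirap stood below Tlr4 and above Ticam1 per kb.

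By the union of exons, the other IRAK genes stood above Irak1, with 1165 per kb for the kinase homologue Irak2 and 1681 for Irak3. Irak3 encodes the inhibitory IRAK-M. Irak1 stood at 1007 per kb by that length and at 1238 to 2229 by the others, which were not applied to Irak2 and Irak3. Of the 11 genes of the ubiquitin and TAK1 step 10 lay above the median by count. The highest per kb was Tab2, a TAK1-binding subunit, at 1689, and the lowest was Peli3, the 1 gene below the median, at 11.5. The 5 genes of the TRIF arm lay close together, between 803 per kb for the kinase Tbk1 and 460 for the transcription factor Irf3, all of them above Ticam2. Of the 6 inhibitors of the receptor complex, Tollip was the highest at 1478 per kb and Sigirr the lowest at 190. The IL-1 family receptors that also use MyD88 had the lowest median of the 9 lists, 21.7 per kb, with Il18rap, the accessory chain of the IL-18 receptor, at 1424 and Il1r1, the IL-1 receptor, at 5.03.

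**Figure D3:**
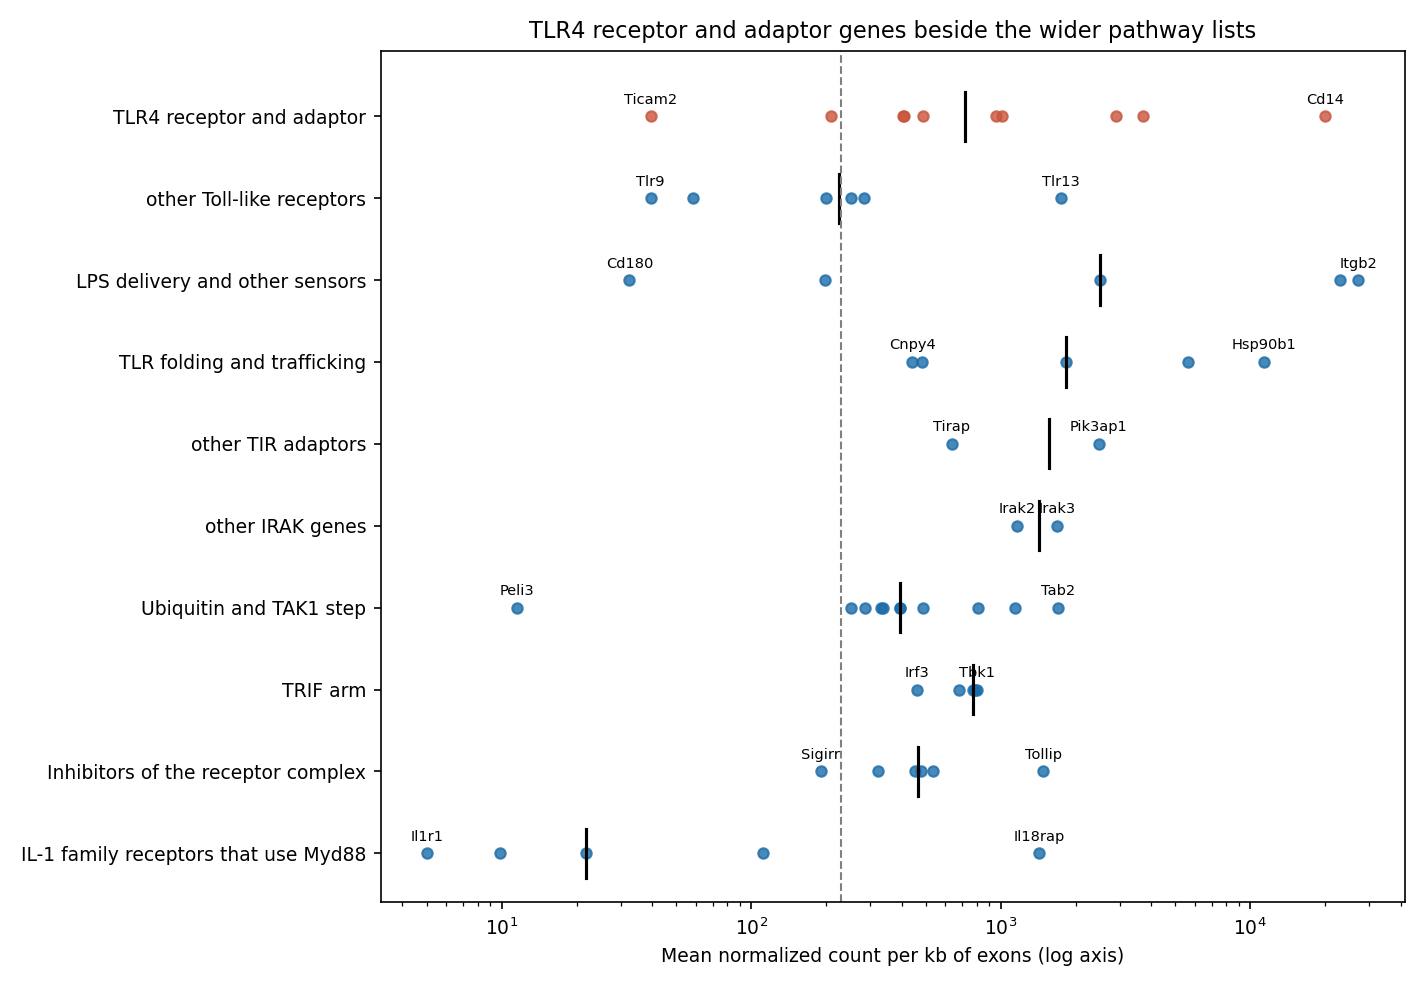
Mean normalized count per kb of exons (log axis) for the 10 TLR4 receptor and adaptor genes (red) and 9 wider pathway lists (blue). Each point is a gene, black bars are list medians, the dashed line is the median of all genes, and the highest and lowest genes are named. The 10 genes span from Ticam2 at 39.5 to Cd14 at 19951 per kb, and the IL-1 family receptors have the lowest median.

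The labelled cell type was compared with marker genes. All 13 neutrophil markers were listed and made up 8.33% of all normalized counts. They were led by S100a9 at 2472855 per kb and S100a8 at 1351838 per kb, the calprotectin subunits (mean normalized counts 1290830 and 938175). The 4 markers of neutrophil precursors were also high, and the highest of them per kb were the genes of the granule enzymes Prtn3, at 37050 per kb, and Mpo, at 35561 per kb. Of 8 monocyte or macrophage markers 4 were listed, and the highest of them per kb were Cd68, at 5333 per kb, and Adgre1, at 3111 per kb. The 4 dendritic cell markers were not among the genes listed. The only B cell marker listed was Cd79a, at 57.5 per kb (mean normalized count 83.8). The only T or NK cell marker listed was Cd3d, at 138 per kb (mean normalized count 250). The 4 eosinophil markers made up 0.749% of all normalized counts. Prg2, the granule major basic protein, stood at 320189 per kb (mean normalized count 268319). Epx, eosinophil peroxidase, stood at 52165 per kb (mean normalized count 142776). The surface receptor genes on that list were lower by count and per kb. Siglecf stood at 1648 per kb (mean normalized count 4599, higher than 82.4% of genes). Ccr3 stood at 20.1 per kb (mean normalized count 65.6, below the median of all genes). Both were named after their values were seen. Of the 4 basophil or mast cell markers listed, Cpa3 and Mcpt8 lay above the median of all genes by count and the others below it. Cpa3 stood at 17334 per kb (mean normalized count 26296) and Mcpt8 at 2808 per kb (mean normalized count 2802). The erythroid or megakaryocyte markers listed were Itga2b at 1196 per kb and Pf4 at 52.8 per kb (mean normalized counts 6521 and 38.1). The progenitor markers Cd34 and Kit stood at 352 and 121 per kb (mean normalized counts 2564 and 1075).

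Most of the 10 genes are also used by monocytes and macrophages. The share of each cell type in the levels of the 10 genes was not tested, also not that of eosinophils, basophils or mast cells. In bulk RNA, more cells of a type and more RNA per cell cannot be told apart.

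**Figure D4:**
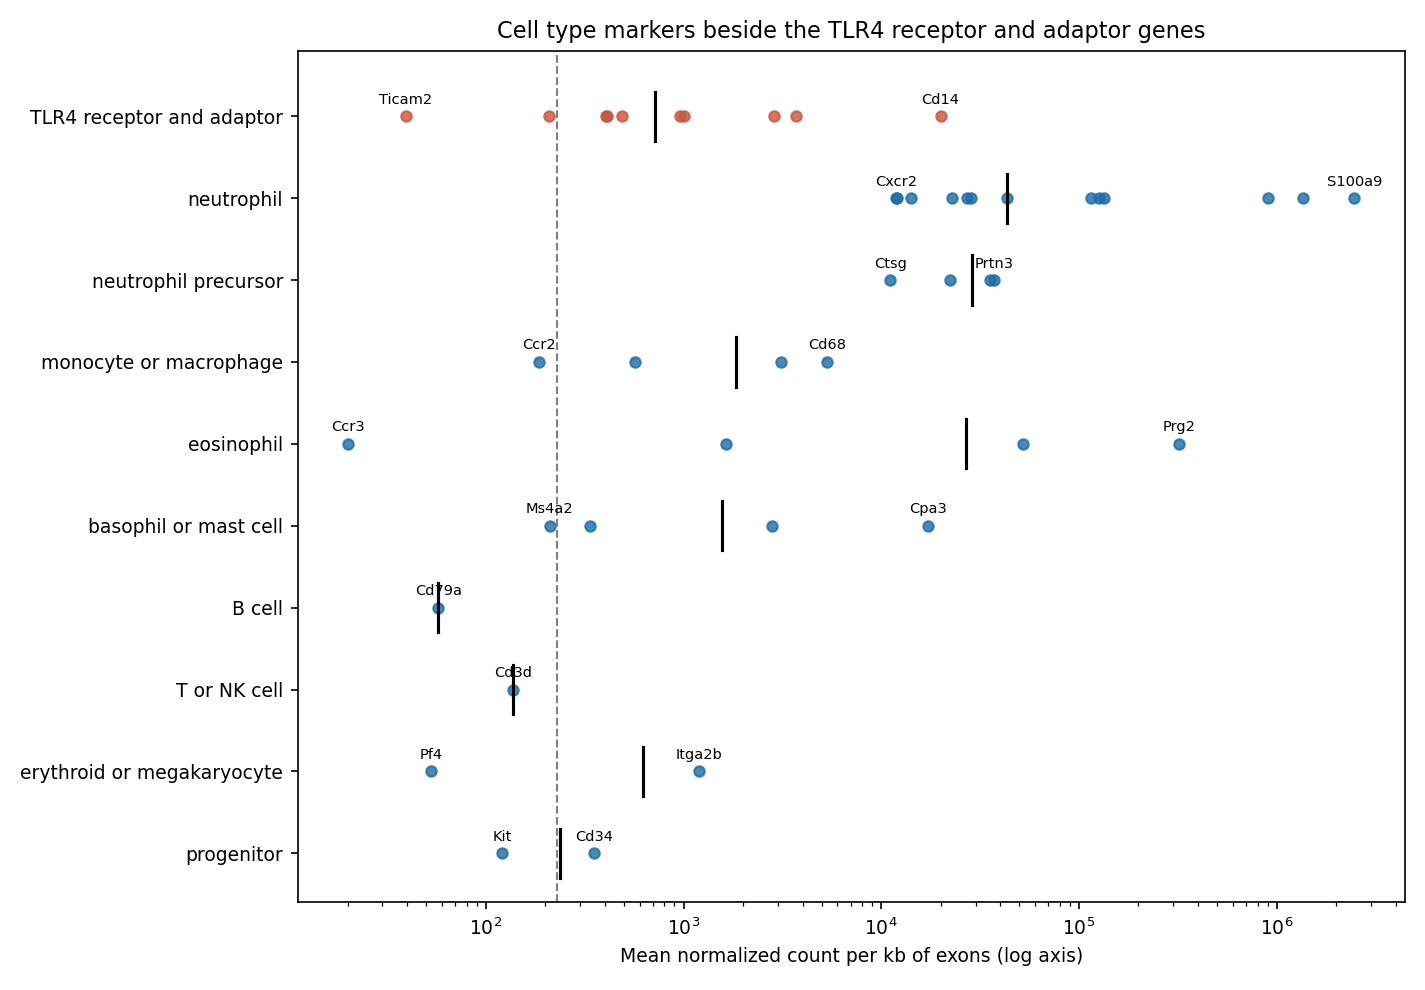
Mean normalized count per kb of exons (log axis) for the 10 TLR4 receptor and adaptor genes (red) and the listed markers of 9 cell types (blue). Each point is a gene, black bars are list medians, the dashed line is the median of all genes, and the highest and lowest genes are named. Neutrophil markers reach the highest levels, with S100a9 at 2472855 per kb, and the eosinophil marker Prg2 stands at 320189 per kb.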

How the data were processed

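Mouse neutrophil mRNA was sequenced in 10 libraries. Per the labels and methods, the authors removed adapters with Cutadapt 4.4, mapped and counted reads against mm10 by STAR 2.7.10b, and normalized and modelled counts with DESeq2 1.26.0 together with RUVSeq covariates. The annotation and the use of strand in counting are not given in the sources used here. The deposited signal is the authors' mean normalized count over all libraries. The other columns of the 4 tables hold the authors' own comparisons of genotype and LPS (fold changes, standard errors, statistics, p-values and calls) and were not used, so there are no values per library, no tests and no depth per library, which limits the precision to an unknown degree.

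Symbols were matched to GENCODE M21 (GRCm38) for 12048 genes (92%), and means were divided by the union of exons, or by the longest transcript, the APPRIS principal transcript or its coding length. The union, size and overlap of intervals were checked on a small made-up example. Percentiles are shares of genes with a lower value. The genes and lists were chosen with earlier results of these data known. Named genes were the 10 genes, the highest and lowest per kb of each pathway list, and the highest 2 of each marker list. Outside that rule, the other Toll-like receptors, Lbp, Tmed7, Siglecf and Ccr3 were named after their values were seen. Vimentin was named as the targeted gene, and Acaa1a, Twf1, Mir5132 and Mir718 for their overlap with exons of the 10 genes. Ratios between genes were chosen after the data were seen. Python 3.11.15, numpy 2.4.6, pandas 2.3.3 and matplotlib 3.10.9 were used.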

Additional observations from a re-analysis of the deposited data

How the results depend on the processing

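The order of the 10 genes depended on the length used: 6 genes kept their place with the longest transcript, 5 with the principal transcript and 7 with the coding length. Of the levels per kb under other lengths, 11 moved by over 1.5 times and 19 did not, and under the coding length Ticam2 rose to 329 and Traf6 to 1031 per kb. The number of genes above the median of all genes was 8 in the main ranking and 7 among the 10321 genes with a mean of at least 100, and 8 per kb by each of the 4 lengths, but the genes below it differed. They were Ly96 and Ticam2 by count (with Ticam1 among genes of at least 100), Traf6 and Ticam2 by the union of exons, longest and principal transcript, and Ticam1 and Ticam2 by coding length. Percentiles moved by over 1.5 times for Ly96 (37 by count, 62.3 per kb, 20.1 among genes with a mean of at least 100) and Ticam2 (10.8 among those genes). Of the ratios between genes under other lengths, which were added with the data in view, 8 moved by over 1.5 times, 34 did not and none turned. All 4 tables carry the same means and so gave the same sum, which is no separate check. No paired analysis was possible because only 1 mean over all libraries was used. Without values per library, neither depth nor spread could be weighed.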
